A study of Caenorhabditis elegans with 9 samples.

Results

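The genes described here are 10 C. elegans genes of programmed cell death and of the removal of dead cells: egl-1, ced-13, ced-9, ced-4, ced-3, ced-8, ced-1, ced-6, ced-7 and ced-10. Their probe sets were taken from the array annotation by gene symbol. All 10 were on the array, among 17118 genes that at least 1 probe set names alone, and 17 of the 22548 probe sets that are not controls measure them. The animals were mixed-stage populations of 4 strains. The double mutant nth-1;xpa-1 carries nth-1(ok724), a deletion in the gene of the DNA glycosylase that starts base excision repair of oxidized bases, and xpa-1(ok698), a deletion in the gene of the damage verification protein of nucleotide excision repair. The single mutants xpa-1 and nth-1 carry 1 of these alleles each, and N2 is the Bristol wild type. The arrays are of worms with no treatment named in the labels, and all were raised on the same bacteria, HT115(DE3). By the methods, worms were collected once the food on their plates was used up, and were then left to digest their gut content. The submitters' design text calls the strains RNAi mutants, while the methods give deletion alleles and say that all strains were backcrossed. The deletions are carried by every cell, and the worms were not sorted by stage or tissue.

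In C. elegans the same small set of proteins executes nearly every programmed cell death. A BH3-only protein, EGL-1 or CED-13, binds the Bcl-2 family protein CED-9 and frees CED-4, the counterpart of Apaf-1, which activates the caspase CED-3. The dying cell then exposes phosphatidylserine, a step in which CED-8 acts, and a neighbour swallows it through 2 partly redundant signalling branches, one with the receptor CED-1, its adaptor CED-6 and the ABC transporter CED-7, the other ending in the Rac GTPase CED-10. In adult hermaphrodites the germ line is the main site of cell death. Germ cells die both in normal oogenesis and after DNA damage, when the p53 homolog CEP-1 turns on egl-1 and ced-13. Strains that lack DNA repair enzymes raise the question whether these transcripts differ when damage is left to arise on its own.

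The deposited table holds 2 arrays of nth-1;xpa-1, 2 of xpa-1, 3 of nth-1 and 2 of N2, 9 in all, as log2 expression values with array medians of 7.43 to 7.69. The few arrays limit the precision throughout, and each replicate is read as a separate culture because the methods describe plates for each one. The xpa-1 transcript was 6.03 and 5.78 in nth-1;xpa-1 and 6.59 and 5.66 in xpa-1, against 10.69, 10.51 and 10.35 in nth-1 and 10.57 and 10.58 in N2, so the strains labelled with the xpa-1 deletion had the low values. The nth-1 probe set read 9.32 to 10.37 in all 9 arrays, and it checks nothing, since the files do not say whether it lies in the deleted part. The array nth-1 replicate 3 stood apart from its group, with r = 0.95 and 0.952 across probe sets to the other arrays of nth-1, against 0.98 to 0.994 within the other pairs of a strain. The spiked hybridization control BioC divided the arrays into 2 sets. It was 9.63 to 10.04 in 5 arrays, the double mutant, N2 and 1 array of xpa-1 (replicate 1), and 8.20 to 8.29 in the other 4, which are all of nth-1 plus xpa-1 replicate 2. Only xpa-1 has arrays in both sets, so differences of nth-1 from the double mutant or from N2 cannot be told apart from this division except through the 2 arrays of xpa-1. Values with the set as a block, or within the higher set, are given beside the differences of the 10 genes they change.

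Where a gene has several probe sets, the brightest stands for it, and the others are described with the gene. Strains were compared on the log2 scale with limma in 1 fit of all 9 arrays, and a difference was called at an adjusted p (Benjamini-Hochberg, over all 22548 probe sets) under 0.05. The 3 comparisons with N2 share its arrays, and those with nth-1;xpa-1 share the arrays of the double mutant, so their values are not independent. The table gives no detection calls. The means of the 17 probe sets lay between the 17.6th and the 93.9th percentile of all probe sets, egl-1 at 20.8, ced-13 at 33.5 and ced-3 at 37.2 among the dim ones. RNA came from whole worms, where fewer cells of a type and less RNA per cell cannot be told apart.

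None of the 10 genes passed the test in any single or double mutant against N2. For nth-1;xpa-1 against N2 this stands beside 8.64% of all probe sets called (4.24% higher and 4.4% lower), for xpa-1 against N2 beside 10.5% (3.89% and 6.65%) and for nth-1 against N2 beside 10% (3.06% and 6.98%). At an unadjusted p under 0.05 there was 1 lower gene in nth-1;xpa-1, 1 higher and 1 lower in xpa-1, and 3 lower in nth-1. The share of all probe sets at this unadjusted threshold was not counted, so these counts have no background beside them. The differences called were between the double mutant and the single mutants. Against xpa-1, the double mutant had ced-13 and ced-8 higher and ced-3 lower, 3 of 10 genes, where 34.8% of all probe sets were called (19.4% higher and 15.5% lower). Against nth-1 it had ced-13, ced-8 and ced-1 higher, 3 of 10 beside 36.7% of all probe sets (21.7% higher and 15% lower). Both shares are near those of the whole array, so they do not set these genes apart from other genes. No member was called between xpa-1 and nth-1, where 0.0266% of all probe sets were (0.00887% higher in xpa-1). At an unadjusted p under 0.05, 2 members were higher in xpa-1, again with no share over all probe sets counted. By a ratio of mean unlogged values of 1.8 or more, the study's own threshold, ced-3 was taken for nth-1;xpa-1 and for xpa-1 against N2 (12% and 12.4% of all probe sets taken), ced-1 for nth-1 against N2 (9.07%) and ced-3 for xpa-1 against nth-1 (3.25%). The same rule took ced-3 and ced-8 for nth-1;xpa-1 against xpa-1 (26.2%), and ced-13, ced-8 and ced-1 against nth-1 (22.9%).

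**Figure D1:**
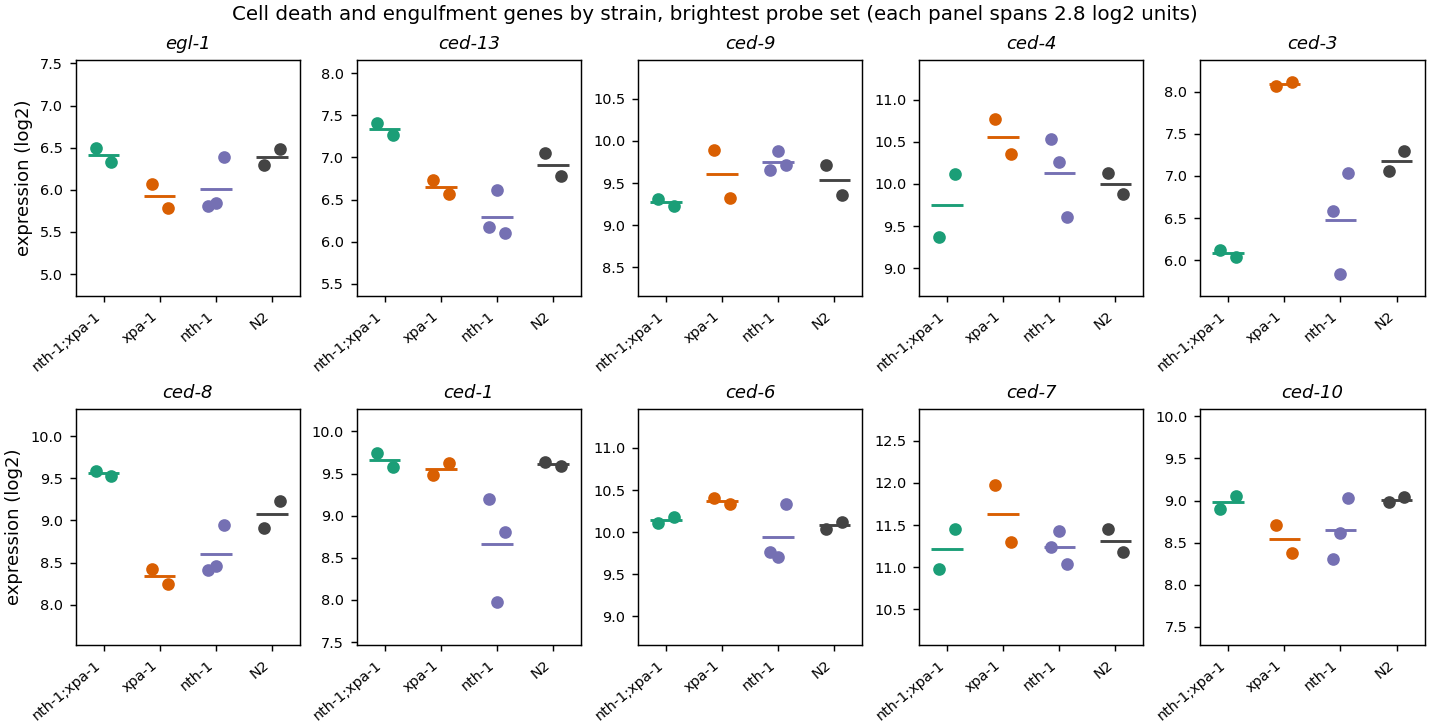
Expression of the 10 genes (log2, brightest probe set) in every array, from the double mutant at the left through xpa-1 and nth-1 to N2 at the right. Points are arrays, horizontal lines are strain means, and every panel spans the same number of log2 units. The ced-3 values of xpa-1 (8.07 and 8.12) lie above, and those of nth-1;xpa-1 (6.12 and 6.04) below, both N2 arrays.

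The median difference of the 10 genes was -0.06 for nth-1;xpa-1 against xpa-1, beside 0.11 over all probe sets, and 0.27 against nth-1, beside 0.13. Against N2 the medians were 0.00 for nth-1;xpa-1 (0.05 over all probe sets), 0.01 for xpa-1 (-0.04) and -0.37 for nth-1 (-0.05). In nth-1 the difference from N2 was below 0 in 8 of 10 genes, and the share of all probe sets below 0 was not counted. With the BioC set as a block the median for nth-1 was -0.08, beside -0.05 over all probe sets. An interaction was also fitted: how far the double mutant departed from N2 beyond the added departures of both single mutants. It was called in 4 of 10 genes, where 39.4% of all probe sets were called, with egl-1, ced-13 and ced-8 above the added departures (23% of all probe sets) and ced-3 below them (16.4%). Quantile normalization moved the median over all probe sets from 0.11 to 0.00 against xpa-1, from 0.13 to 0.01 against nth-1 and from 0.17 to 0.00 for the interaction, and under it ced-13 against xpa-1 (0.46, adjusted p = 0.11) and egl-1 in the interaction (0.52, adjusted p = 0.20) were no longer called, while ced-1 in the interaction (1.26, adjusted p = 0.047) was.

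Without nth-1 replicate 3 more of the array was called in every comparison. Against N2, 1 member was then called lower in nth-1;xpa-1 (26.2% of all probe sets called), 1 higher and 2 lower in xpa-1 (28.6%), and 4 lower in nth-1 (26.9%). Against xpa-1 the double mutant had 3 higher and 2 lower (50.2%), and against nth-1 6 higher (50.5%). The interaction was called in 6 genes (53.3%), and between xpa-1 and nth-1 ced-3 and ced-6 were higher in xpa-1 (5.2%). Within the higher BioC set, 6 members were called between the double mutant and the 1 array of xpa-1 there, with 55.4% of all probe sets, the lone array being taken to vary like the others. Beside ced-13, ced-3 and ced-8 these were ced-9 (-0.62, adjusted p = 0.0037), ced-4 (-1.02, adjusted p = 0.00087) and ced-7 (-0.76, adjusted p = 0.00084), all lower in the double mutant.

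**Figure D2:**
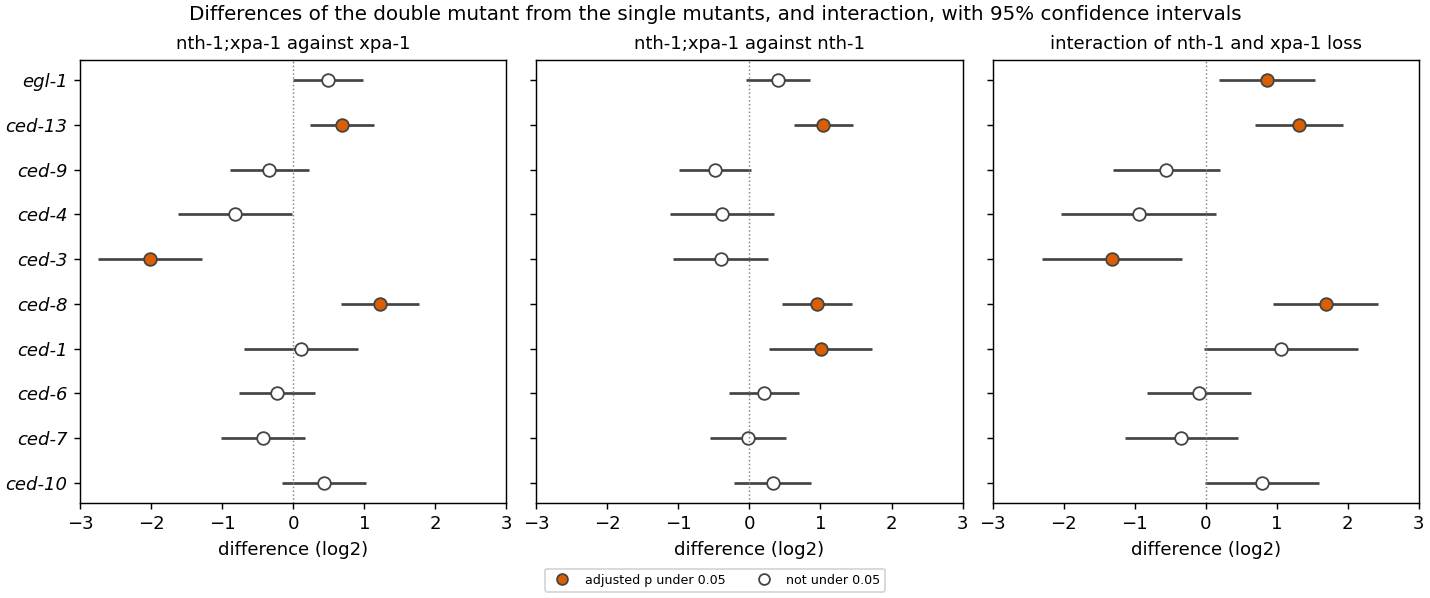
Differences (log2) of nth-1;xpa-1 from xpa-1 and from nth-1, and the interaction, for the 10 genes. Points are limma estimates from all 9 arrays, lines are 95% confidence intervals, and filled points had an adjusted p under 0.05. The interval of ced-3 against xpa-1 runs from -2.75 to -1.28 and that of ced-8 from 0.68 to 1.77.

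The BH3-only genes start the pathway. The transcript of egl-1, which encodes the protein that binds CED-9 in nearly all programmed somatic deaths, was 6.50 and 6.33 in nth-1;xpa-1, 6.07 and 5.78 in xpa-1, 5.81, 5.84 and 6.39 in nth-1, and 6.29 and 6.49 in N2. The double mutant and N2 overlapped, both xpa-1 arrays lay below both, and in nth-1 only replicate 3 reached the N2 range. No comparison of 2 strains was called. The double mutant differed by 0.03 from N2 (95% confidence interval -0.47 to 0.52), by 0.49 from xpa-1 (-0.01 to 0.99) and by 0.40 from nth-1 (-0.05 to 0.86). The interaction of 0.87 (standard error 0.30) passed with an adjusted p of 0.046, and this call ended in 8 of the 9 fits that each left out 1 array (0.72 to 1.01, adjusted p = 0.052 to 0.14). It held without nth-1 replicate 3 (1.05, adjusted p = 0.0026). In that fit egl-1 was also lower than in N2 in xpa-1 (-0.47, adjusted p = 0.047) and in nth-1 (-0.57, adjusted p = 0.023), and higher in nth-1;xpa-1 than in xpa-1 (0.49, adjusted p = 0.023) and than in nth-1 (0.59, adjusted p = 0.0097). With the BioC set as a block the interaction was 0.43 (adjusted p = 0.67).

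The second BH3-only gene differed more between strains. ced-13, which CEP-1 activates in the germ line after DNA damage, read 7.41 and 7.26 in nth-1;xpa-1, 6.73 and 6.56 in xpa-1, 6.17, 6.61 and 6.10 in nth-1, and 7.05 and 6.78 in N2. The double mutant was the highest strain in every array and nth-1 the lowest on average, while N2 lay between the double mutant and xpa-1. Against nth-1 the double mutant was higher by 1.04 (standard error 0.18, adjusted p = 0.0034), 2.06-fold, and this call held in all 9 fits without 1 array (0.95 to 1.20). Against xpa-1 it was higher by 0.69 (standard error 0.20, adjusted p = 0.027). That call ended without any 1 of the arrays nth-1;xpa-1 replicate 1 or 2 and xpa-1 replicate 1 or 2 (0.61 to 0.78, adjusted p = 0.059 to 0.14). The interaction was 1.31 (standard error 0.27, adjusted p = 0.0057) and was called in all 9 of these fits (1.18 to 1.47). From N2 the double mutant differed by 0.42 (95% confidence interval -0.03 to 0.87, adjusted p = 0.22), and nth-1 by -0.62 (-1.04 to -0.21, adjusted p = 0.065). Within the higher BioC set, where 43.6% of all probe sets were called between nth-1;xpa-1 and N2, the 0.42 had an adjusted p of 0.023. With the set as a block the difference from nth-1 was 0.87 (adjusted p = 0.18), that from xpa-1 0.61 (adjusted p = 0.12) and the interaction 1.06 (adjusted p = 0.24).

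ced-9 encodes the Bcl-2 family protein that holds CED-4 inactive, and its 2 probe sets gave different pictures. The brighter, 174916_at, read 9.31 and 9.23 in nth-1;xpa-1, 9.89 and 9.32 in xpa-1, 9.66, 9.88 and 9.72 in nth-1, and 9.71 and 9.36 in N2. Both arrays of the double mutant were below all others, the nearest being xpa-1 replicate 2, and no comparison was called. The widest difference was that from nth-1 (-0.48, 95% confidence interval -0.99 to 0.02). The dimmer, 193864_at, read 6.09 and 6.18 in nth-1;xpa-1, 6.38 and 6.48 in xpa-1, 6.67, 6.68 and 6.55 in nth-1, and 5.97 and 6.0 in N2. Here all 4 strains were apart from each other, with nth-1 highest, followed by xpa-1, the double mutant and N2. It was higher in nth-1 than in N2 by 0.65 (standard error 0.12, adjusted p = 0.013), the only one of the 17 probe sets called against N2 in the fit of all 9 arrays. It was lower in nth-1;xpa-1 than in nth-1 (-0.50, adjusted p = 0.012), and its interaction was -0.94 (adjusted p = 0.0036). The call against N2 ended without N2 replicate 1 or 2 (0.63 to 0.66, adjusted p = 0.11 to 0.12) and that against nth-1 without nth-1;xpa-1 replicate 1 or 2 (adjusted p = 0.061 to 0.095), while the interaction was called in all 9 such fits. With the BioC set as a block these were 0.55 (adjusted p = 0.43), -0.40 (adjusted p = 0.30) and -0.79 (adjusted p = 0.17).

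ced-4, whose product assembles into the complex that activates the caspase, varied more between replicates than the other genes of the core pathway. Its values were 9.37 and 10.12 in nth-1;xpa-1, 10.77 and 10.35 in xpa-1, 10.53, 10.26 and 9.61 in nth-1, and 10.13 and 9.88 in N2. The xpa-1 arrays lay above those of the double mutant and N2, and nth-1 overlapped with every strain. No comparison was called. The difference of nth-1;xpa-1 from xpa-1 was -0.82 (95% confidence interval -1.62 to -0.01, adjusted p = 0.11). Without nth-1 replicate 3 this difference was called (adjusted p = 0.023), as was an interaction of -1.21 (adjusted p = 0.018). Within the higher BioC set the difference from xpa-1 was called too (-1.02, adjusted p = 0.00087), and the 1 array of xpa-1 there was higher than N2 (0.77, adjusted p = 0.012).

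The caspase gene ced-3, without which nearly all programmed deaths fail, had the widest spread of strain means among the 10 genes. It read 6.12 and 6.04 in nth-1;xpa-1, 8.07 and 8.12 in xpa-1, 6.58, 5.83 and 7.03 in nth-1, and 7.06 and 7.29 in N2. The xpa-1 arrays were above all others, the N2 arrays came next, and the double mutant lay below N2 and within the range of nth-1. Compared with xpa-1 the double mutant was lower by 2.02 (log2 difference -2.02, standard error 0.32, adjusted p = 0.0024), 4.04-fold. This call held in all 9 fits without 1 array (-2.06 to -1.98), under quantile normalization (-2.17, adjusted p = 0.0013) and with the BioC set as a block (-1.99, adjusted p = 0.017).

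Against N2 the ced-3 differences went in opposite directions in the single mutants and did not pass: -1.10 in nth-1;xpa-1 (95% confidence interval -1.83 to -0.36, adjusted p = 0.07), 0.92 in xpa-1 (0.19 to 1.65, adjusted p = 0.10) and -0.70 in nth-1 (-1.36 to -0.03, adjusted p = 0.17). Without nth-1 replicate 3 they were called, at adjusted p of 0.0057, 0.012 and 0.011. Without that array xpa-1 was also higher than nth-1 by 1.89 (adjusted p = 0.0014), against 1.62 (adjusted p = 0.31) in all arrays. Within the higher BioC set, nth-1;xpa-1 was lower than N2 (-1.09, adjusted p = 9.4e-06), and xpa-1 replicate 1 was higher than N2 (0.90, adjusted p = 0.00061), where 38% of all probe sets were called. The interaction of -1.32 (standard error 0.44, adjusted p = 0.04) ended in 7 of the 9 fits without 1 array (-1.44 to -1.21, adjusted p = 0.076 to 0.13). It held when replicate 2 or replicate 3 of nth-1 was left out, and ended with the BioC set as a block (-1.25, adjusted p = 0.41). The 24 markers of germ line and oocytes described with the other lists were highest in xpa-1 and lowest in the double mutant too, with mean log2 levels of 10.62 to 10.69 in nth-1;xpa-1, 11.86 to 11.87 in xpa-1, 11.24 to 11.43 in nth-1 and 11.34 to 11.36 in N2. Their part in the ced-3 differences was not tested. The other ced-3 probe set, 194137_at, is dimmer and read 5.81 and 5.63 in nth-1;xpa-1, 6.25 and 6.51 in xpa-1, 6.11, 5.86 and 5.95 in nth-1, and 5.96 and 6.10 in N2. It had the same order at the top and bottom, with the double mutant lower than xpa-1 by a smaller amount (-0.66, standard error 0.16, adjusted p = 0.013). That call ended without nth-1;xpa-1 replicate 2 or xpa-1 replicate 2 (-0.57 to -0.53, adjusted p = 0.076 to 0.093) and with the BioC set as a block (-0.53, adjusted p = 0.076).

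ced-8 encodes an Xk-related membrane protein that CED-3 cleaves and that promotes phosphatidylserine exposure on dying cells. Its highest and lowest strains were those of ced-3 exchanged, with 9.59 and 9.53 in nth-1;xpa-1, 8.42 and 8.25 in xpa-1, 8.41, 8.46 and 8.95 in nth-1, and 8.91 and 9.23 in N2. Its arrays in the double mutant were above all others, and xpa-1 was the lowest strain on average, while nth-1 replicate 3 lay apart from the other nth-1 arrays and inside the N2 range. The double mutant was higher than xpa-1 by 1.23 (standard error 0.24, adjusted p = 0.0055), 2.34-fold, in all 9 fits without 1 array (1.14 to 1.31) and with the BioC set as a block (1.14, adjusted p = 0.031). It was higher than nth-1 by 0.95 (standard error 0.22, adjusted p = 0.01). This call ended without nth-1;xpa-1 replicate 1 or replicate 2 (0.92 to 0.98, adjusted p = 0.069 to 0.08) and with the block (0.78, adjusted p = 0.29). The interaction of 1.69 (standard error 0.33, adjusted p = 0.0042) was the widest of the 10 genes and was called in all 9 fits without 1 array (1.53 to 1.86), but not with the block (1.43, adjusted p = 0.19). Against N2 the differences were 0.49 in nth-1;xpa-1 (95% confidence interval -0.06 to 1.04, adjusted p = 0.24), -0.74 in xpa-1 (-1.28 to -0.19, adjusted p = 0.085) and -0.46 in nth-1 (-0.96 to 0.04, adjusted p = 0.22). Without nth-1 replicate 3 ced-8 was called lower than in N2 in xpa-1 (adjusted p = 0.01) and in nth-1 (-0.64, adjusted p = 0.021), and within the higher BioC set it was called higher in nth-1;xpa-1 (adjusted p = 0.0062).

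Among the engulfment genes, ced-1 was the only one called by its brightest probe set. It encodes the transmembrane receptor with which a neighbour recognizes the dying cell. Probe set 173720_at read 9.75 and 9.58 in nth-1;xpa-1, 9.48 and 9.63 in xpa-1, 9.20, 7.98 and 8.81 in nth-1, and 9.64 and 9.59 in N2. The 3 nth-1 arrays were below all others and scattered over more than 1 log2 unit, while the other strains overlapped. The double mutant was higher than nth-1 by 1.0 (standard error 0.32, adjusted p = 0.038). This call ended in 7 of 9 fits without 1 array (0.66 to 1.09, adjusted p = 0.052 to 0.19), namely all but those without nth-1 replicate 1 or nth-1 replicate 3. It also ended with the BioC set as a block (1.15, adjusted p = 0.30). Against N2 the difference of nth-1 was -0.95 (95% confidence interval -1.68 to -0.22, adjusted p = 0.097), and -1.02 (adjusted p = 0.04) without nth-1 replicate 3. The other ced-1 probe set, 189327_s_at, did not show it, with 8.94 and 8.87 in nth-1;xpa-1, 8.30 and 9.0 in xpa-1, 8.52, 8.43 and 8.99 in nth-1, and 8.54 and 8.42 in N2. Its difference between the double mutant and nth-1 was 0.26 (95% confidence interval -0.32 to 0.84, adjusted p = 0.46).

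ced-6, which encodes the phosphotyrosine-binding domain adaptor of CED-1, had 2 probe sets that differed in pattern. The brighter, 175802_at, read 10.11 and 10.18 in nth-1;xpa-1, 10.41 and 10.34 in xpa-1, 9.77, 9.71 and 10.34 in nth-1, and 10.04 and 10.12 in N2, and no comparison was called. With replicate 3 of nth-1 left out, the double mutant was higher than nth-1 by 0.41 (adjusted p = 0.037), and xpa-1 was higher than nth-1 by 0.64 (adjusted p = 0.031). The other, 188052_s_at, is of a type that several transcripts can share. The same holds for each probe set ending in _s_at, those of gla-3 and brc-1 among them. Probe set 188052_s_at read 9.34 and 8.95 in nth-1;xpa-1, 9.71 and 10.25 in xpa-1, 9.79, 9.48 and 9.92 in nth-1, and 9.03 and 9.18 in N2. Both single mutants were above N2 in every array, at 0.88 in xpa-1 (adjusted p = 0.067) and 0.63 in nth-1 (adjusted p = 0.13), and the double mutant overlapped with N2. The double mutant was lower than xpa-1 by 0.84 (log2 difference -0.84, standard error 0.26, adjusted p = 0.037), a call that ended in 5 fits without 1 array, those without N2 replicate 1 or 2, nth-1;xpa-1 replicate 1 or 2, or xpa-1 replicate 2 (adjusted p = 0.067 to 0.22), and with the BioC set as a block (-0.57, adjusted p = 0.19). In the higher BioC set alone it was called (adjusted p = 0.0099), as was a higher level in the 1 array of xpa-1 there than in N2 (0.61, adjusted p = 0.01). The interaction was -1.46 (standard error 0.36, adjusted p = 0.012), and it ended without N2 replicate 1 or nth-1;xpa-1 replicate 2 (adjusted p = 0.056 to 0.06) and with the BioC set as a block (-0.65, adjusted p = 0.53).

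ced-7, which encodes an ABC transporter needed in both the dying and the engulfing cell, had no comparison called in either of its probe sets in the fit of all arrays. Probe set 193420_s_at read 10.98 and 11.45 in nth-1;xpa-1, 11.97 and 11.30 in xpa-1, 11.24, 11.43 and 11.04 in nth-1, and 11.45 and 11.18 in N2. The strains overlapped, and the interval of the double mutant against N2 ran from -0.69 to 0.49. The second, 175793_s_at, read 10.42 and 10.43 in nth-1;xpa-1, 11.17 and 10.96 in xpa-1, 10.57, 10.66 and 11.38 in nth-1, and 10.63 and 10.79 in N2. There the double mutant was below all other arrays, with a difference of -0.64 from xpa-1 (95% confidence interval -1.25 to -0.03, adjusted p = 0.094). In the higher BioC set alone, 193420_s_at was lower in nth-1;xpa-1 than in the 1 array of xpa-1 there (-0.76, adjusted p = 0.00084), and that array was higher than N2 (0.66, adjusted p = 0.0045).

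ced-10 encodes the Rac GTPase that drives the rearrangement of actin in the engulfing cell, and it had 3 probe sets. The brightest, 173435_s_at, read 8.90 and 9.06 in nth-1;xpa-1, 8.71 and 8.38 in xpa-1, 8.31, 8.62 and 9.03 in nth-1, and 8.98 and 9.04 in N2, and none of its comparisons was called. Without nth-1 replicate 3 the double mutant was called higher than nth-1 (0.52, adjusted p = 0.038) and the interaction was called (0.98, adjusted p = 0.0096). Probe set 172721_x_at, of a type that can also bind other transcripts, read 7.01 and 6.85 in nth-1;xpa-1, 5.93 and 6.07 in xpa-1, 6.47, 6.28 and 6.61 in nth-1, and 6.64 and 6.47 in N2. Both arrays of nth-1;xpa-1 were above and both of xpa-1 below all other arrays. It was higher in the double mutant than in xpa-1 by 0.93 (standard error 0.16, adjusted p = 0.0031) and the interaction was 1.03 (adjusted p = 0.006), both in all 9 fits without 1 array. It was higher than nth-1 by 0.48 (adjusted p = 0.032), which ended in 6 of these fits, those without either array of N2, of nth-1;xpa-1, or nth-1 replicate 1 or 2 (adjusted p = 0.05 to 0.19), and under quantile normalization (0.24, adjusted p = 0.23). With the BioC set as a block the difference from xpa-1 was called (1.0, adjusted p = 0.013), and that from nth-1 (0.62, adjusted p = 0.21) and the interaction (1.24, adjusted p = 0.11) were not. Within the higher set, nth-1;xpa-1 was higher than N2 (0.38, adjusted p = 0.043) and the 1 array of xpa-1 was lower (-0.63, adjusted p = 0.01). The dimmest, 188142_s_at, read 5.73 to 6.27 over the 9 arrays with no call.

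**Figure D3:**
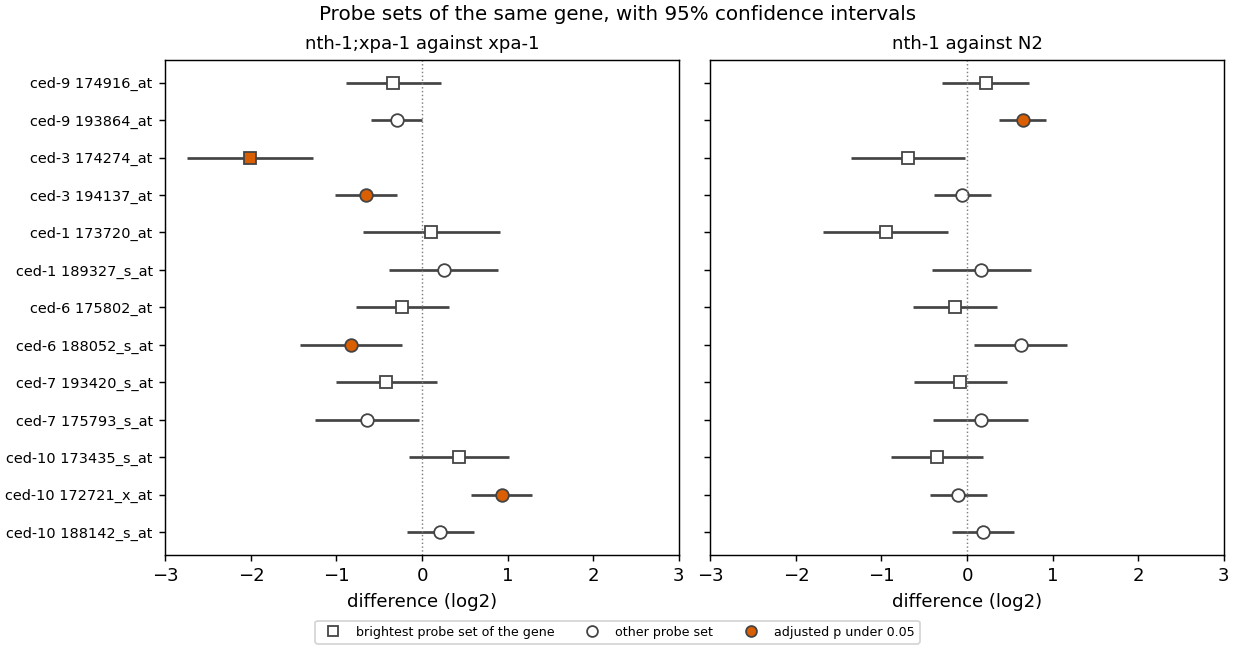
Differences (log2) of nth-1;xpa-1 from xpa-1 and of nth-1 from N2 for the 13 probe sets of the 6 genes with several. Squares are the brightest probe set of a gene, circles the others, lines are 95% confidence intervals, and filled symbols had an adjusted p under 0.05. Both ced-3 probe sets were called against xpa-1 (-2.02 and -0.66), while of ced-9 only 193864_at was called in nth-1 against N2 (0.65).

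Over all 17 probe sets, 3 were called higher and 3 lower in nth-1;xpa-1 than in xpa-1, 4 higher and 1 lower than in nth-1, and none against N2, or 35.3% and 29.4% in the first 2 comparisons beside 34.8% and 36.7% of all probe sets. In xpa-1 none was called against N2 or nth-1, and in nth-1 1 was higher than in N2. The interaction was called above 0 in 4 and below 0 in 3, beside 39.4% of all probe sets. Arrays of the double mutant did not overlap with those of N2 in 69.0% of all probe sets, with those of xpa-1 in 73.1% and with those of nth-1 in 60.3%, while xpa-1 did not overlap with N2 in 63.2%, nth-1 with N2 in 44.5% and xpa-1 with nth-1 in 20.2%, so groups that stand apart are common on this array.

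Other regulators of cell death were measured by a list of 14 genes, all on the array. In nth-1;xpa-1 against xpa-1, 3 rose and 3 fell (42.9%, beside 34.8% of all probe sets), with a median of -0.20 beside 0.11 over all probe sets. The germ line gene gla-3, which encodes a CCCH zinc finger protein that limits germ cell apoptosis, was 6.66 and 6.63 in nth-1;xpa-1, 8.97 and 9.48 in xpa-1, 8.60, 8.23 and 8.48 in nth-1, and 7.52 and 7.88 in N2. It had the order of ced-3 at both ends, highest in xpa-1 and lowest in the double mutant. It fell in nth-1;xpa-1 relative to xpa-1 (-2.58, adjusted p = 0.00032), and it was higher in xpa-1 than in N2 by 1.53 (adjusted p = 0.0067), in 8 of 9 fits without 1 array.

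The caspase homologs csp-2 and csp-3 were highest in the double mutant. csp-2 read 8.05 and 8.22 in nth-1;xpa-1, 6.78 and 7.01 in xpa-1, 6.97, 7.03 and 6.92 in nth-1, and 6.76 and 6.72 in N2, a rise of 1.4 over N2 (adjusted p = 0.0022) and of 1.24 over xpa-1 (adjusted p = 0.00081). csp-3 read 8.92 and 9.08 in nth-1;xpa-1, 7.61 and 7.75 in xpa-1, 7.53, 7.35 and 7.43 in nth-1, and 8.16 and 8.23 in N2, a rise of 1.32 over xpa-1 (adjusted p = 0.00097). Both probe sets are of a type that can bind other transcripts too. wah-1, the homolog of the mitochondrial apoptosis-inducing factor, fell in nth-1;xpa-1 relative to xpa-1 (-1.14, adjusted p = 0.0026) and to nth-1 (-1.12, adjusted p = 0.002, and adjusted p = 0.1 with the BioC set as a block). In xpa-1 and nth-1, wah-1 was higher than in N2 by 0.77 (adjusted p = 0.036) and 0.75 (adjusted p = 0.029), calls kept in 3 and 4 of 9 fits without 1 array and in neither strain with the BioC set as a block (adjusted p = 0.14 and 0.53). In nth-1 against N2 this list had 1 gene higher and 2 lower, 21.4% beside 10% of all probe sets. The lower genes were ces-1 (-0.76, adjusted p = 0.02) and csp-3 (-0.76, adjusted p = 0.018). These calls were kept in 5 and 6 of 9 fits without 1 array. Neither was called with the BioC set as a block (adjusted p = 0.4 and 0.29).

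Of 16 other engulfment genes, 1 rose and 3 fell in nth-1;xpa-1 against xpa-1, and 2 rose and 1 fell against nth-1, shares of 25% and 18.8% beside 34.8% and 36.7% of all probe sets. nrf-5, which encodes a secreted lipid-binding protein that takes part in phosphatidylserine recognition, read 12.39 and 12.33 in nth-1;xpa-1, 10.64 and 11.08 in xpa-1, 10.96, 10.97 and 11.33 in nth-1, and 11.20 and 11.37 in N2. It was the only one of the list to rise against N2 (1.08, adjusted p = 0.016, called in 5 of 9 fits without 1 array), and it rose by 1.5 against xpa-1 (adjusted p = 0.0011). The genes lower than in xpa-1 were abi-1, the Abl interactor gene (-0.71, adjusted p = 0.0071), dyn-1, which encodes dynamin (-0.64, adjusted p = 0.034), and ced-5, the DOCK180 homolog that activates CED-10 (-0.56, adjusted p = 0.016). They were called in 8, 3 and 5 of 9 fits without 1 array, and their adjusted p with the BioC set as a block was 0.023, 0.15 and 0.05. In nth-1 only ttr-52, whose product links phosphatidylserine to CED-1, was called against N2 (-0.84, adjusted p = 0.031, in 4 of 9 fits without 1 array, and adjusted p = 0.68 with the block).

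Of 9 genes that degrade the DNA of dead cells, 1 was called against N2 in xpa-1, nuc-1, and 2 in nth-1, nuc-1 (lower) and crn-4 (higher, not called with the BioC set as a block, adjusted p = 0.3), or 11.1% and 22.2% of the list beside 10.5% and 10% of all probe sets. nuc-1, which encodes the lysosomal DNase II, read 13.13 and 13.08 in nth-1;xpa-1, 12.38 and 12.35 in xpa-1, 12.38, 12.35 and 12.08 in nth-1, and 13.39 and 13.30 in N2. It was lower in both single mutants than in any array of the double mutant or N2, with differences from N2 of -0.98 in xpa-1 (adjusted p = 0.0025) and -1.08 in nth-1 (adjusted p = 0.00088), and its call in nth-1 held in all 9 fits without 1 array but not with the BioC set as a block (-1.04, adjusted p = 0.11). Against xpa-1, the double mutant had nuc-1 (0.74, adjusted p = 0.0021) and cps-6, the mitochondrial endonuclease G gene (0.68, adjusted p = 0.021, in 5 of 9 fits without 1 array, and adjusted p = 0.054 with the block), higher, and crn-1, the homolog of the flap endonuclease FEN-1 (-1.61, adjusted p = 0.0011), and the nuclease gene crn-4 (-1.39, adjusted p = 0.0021) lower, 44.4% of the list beside 34.8% of all probe sets. crn-1 was also lower than in N2 (-0.95, adjusted p = 0.032, in 5 of 9 fits without 1 array).

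Of 14 measured genes of phagosome maturation, 1 rose and 6 fell in nth-1;xpa-1 against xpa-1, with a median of -0.48, or 50% called beside 34.8% of all probe sets (19.4% higher and 15.5% lower). The lipid phosphatase gene mtm-1 (-0.98, adjusted p = 0.0045) and vps-18, which encodes a subunit of vacuolar tethering complexes (-0.99, adjusted p = 0.008, in 7 of 9 fits without 1 array), were among those that fell, and the small GTPase gene rab-14 rose (0.73, adjusted p = 0.033, in 3 of 9 fits without 1 array, and adjusted p = 0.15 with the block). Of 10 measured genes of the DNA damage checkpoint and of its partners around CEP-1, 1 rose and 6 fell against xpa-1, with a median of -0.96, or 70% called beside 34.8% of all probe sets. The BRCA1 homolog brc-1 read 9.05 and 8.96 in nth-1;xpa-1, 10.72 and 10.45 in xpa-1, 10.16, 10.07 and 10.20 in nth-1, and 10.15 and 10.16 in N2. It was lower in the double mutant than in N2 by 1.15 (log2 difference -1.15, adjusted p = 0.01, called in 5 of 9 fits without 1 array) and than in xpa-1 (-1.58, adjusted p = 0.00073). Its partner brd-1 (-1.60, adjusted p = 0.0016), the RAD17 homolog hpr-17 (-1.59, adjusted p = 0.0026) and clk-2 (-1.31, adjusted p = 0.005) fell against xpa-1 as well. No checkpoint gene was called in xpa-1 or nth-1 against N2.

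**Figure D4:**
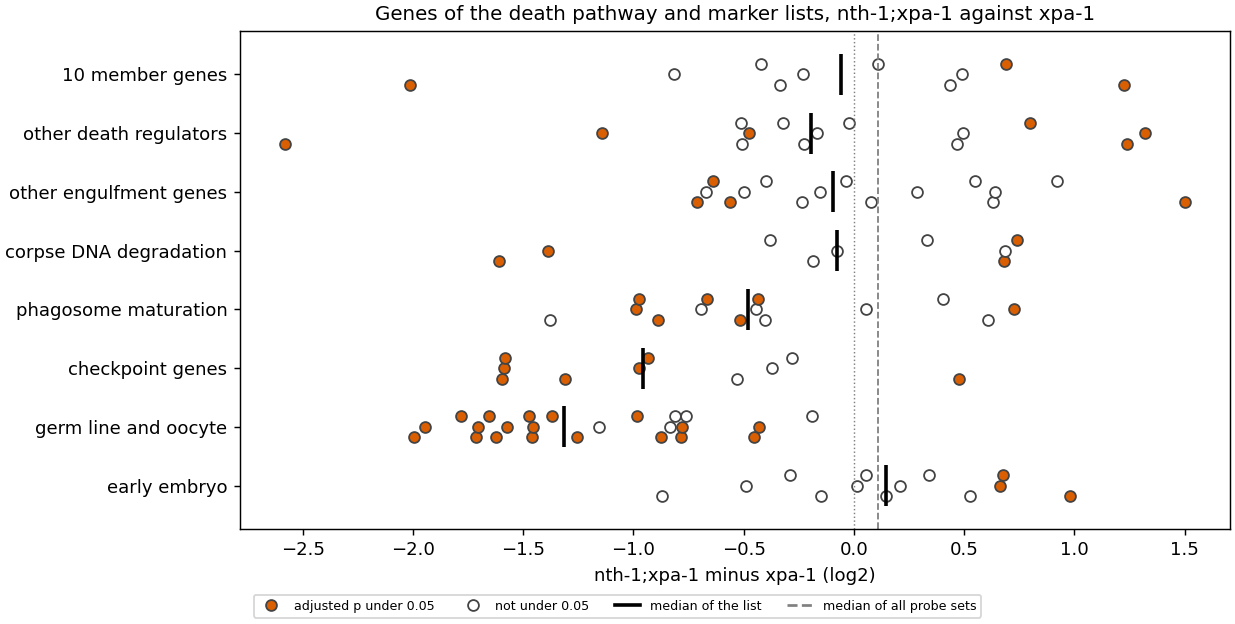
Differences (log2) of nth-1;xpa-1 from xpa-1 for the 10 genes, 5 lists of other genes of the death pathway and 2 marker lists. Points are genes (filled where the adjusted p was under 0.05), black bars are list medians, and the dashed line is the median over all probe sets, 0.11. The checkpoint genes (median -0.96) and the germ line and oocyte markers (-1.31) lie mostly to the left.

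The populations also differed in genes that mark tissues and stages. Of 24 markers of germ line and oocytes, all measured, 19 were lower in nth-1;xpa-1 than in xpa-1, 15 lower than in nth-1 and 11 lower than in N2, and none was higher in the fit of all arrays. The 19 are 79.2% of the list, beside 34.8% of all probe sets called. In xpa-1, 5 were higher than in N2, and in nth-1 none was called. The log2 of their summed unlogged level was 15.69 to 15.75 in nth-1;xpa-1, 16.78 to 16.84 in xpa-1, 16.22 to 16.45 in nth-1 and 16.37 to 16.39 in N2. Examples were the P granule gene pgl-3 (-2.0 against xpa-1, adjusted p = 0.00084) and oma-1, which encodes an oocyte maturation factor (-1.95, adjusted p = 0.0011). As in ced-3, gla-3 and brc-1, the highest strain was xpa-1 and the lowest nth-1;xpa-1, and the part of germ line content in the differences of the death, checkpoint and phagosome genes was not tested. With the BioC set as a block, 17 of the markers were lower in nth-1;xpa-1 than in xpa-1, 5 lower than in nth-1 and 10 lower than in N2, and none was higher in xpa-1 than in N2. Over all probe sets the block left 5646, 1077, 2002 and 757 calls in these comparisons, in the same order, beside 7854, 8277, 1948 and 2377 without it. Without nth-1 replicate 3 the marker counts were 23, 17 and 21 lower (50.2%, 50.5% and 26.2% of all probe sets called in either direction). In that fit 14 were higher in xpa-1 than in N2 (28.6%), 2 were higher in nth-1;xpa-1 than in nth-1, and nth-1 had 2 higher and 3 lower than N2 (26.9%).

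The other marker lists are given by the same comparison. Of 5 measured yolk genes, 3 were lower in nth-1;xpa-1 than in xpa-1, with a median of -1.47, and the log2 of their summed level was 14.98 to 15.07 in nth-1;xpa-1, 16.43 to 16.50 in xpa-1, 15.32 to 16.41 in nth-1 and 16.06 to 16.12 in N2. Of 14 sperm genes, 4 were higher (median 0.69), of 13 early embryo genes 3 (0.15), and of 10 neuronal genes 2 (0.82). Of 9 body wall muscle genes, 1 was higher and 1 lower (0.25), and of 9 intestinal genes 1 was higher and 2 lower (0.20). These shares were 28.6% for sperm, 23.1% for early embryo, 20% for neurons, 22.2% for muscle and 33.3% for intestine, all below the 34.8% of all probe sets, and 60% for yolk. The log2 of the summed level of the neuronal list was 14.29 to 14.36 in nth-1;xpa-1, 13.64 to 13.78 in xpa-1, 13.34 to 14.39 in nth-1 and 13.78 to 13.88 in N2. For the sperm list it was 14.21 to 14.25 in nth-1;xpa-1, 12.88 to 14.10 in xpa-1, 13.13 to 14.08 in nth-1 and 13.65 to 13.80 in N2. ced-13 and ced-8 were highest in nth-1;xpa-1, as the sperm list was, while the neuronal list reached 14.39 in nth-1, above the double mutant. The part of tissue content in the differences of ced-13 and ced-8 was not tested.

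The genes whose values over the 9 arrays were most like those of a member were looked up for the 3 members with the widest strain differences. For ced-3 these were cbd-1 (Pearson r = 0.983), which encodes an eggshell protein, gld-1 (0.982), a translational repressor of the germ line, and phf-14 (0.981). Like ced-3, cbd-1 averaged 11.49 in nth-1;xpa-1, 12.90 in xpa-1, 11.83 in nth-1 and 12.23 in N2. For ced-8 they were F53A2.9 (0.989), the histone H2A gene his-35 (0.987) and F13D11.4 (0.987). his-35 averaged 11.44 in nth-1;xpa-1, 9.97 in xpa-1, 10.27 in nth-1 and 10.84 in N2. For ced-13 they were odr-7 (0.993), a nuclear receptor gene of an olfactory neuron, gpa-16 (0.978), which encodes a G protein alpha subunit, and srbc-24 (0.975). These correlations describe 9 arrays that share 4 strains, and the genes were picked as the highest of all.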

How the data were processed

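RNA of whole mixed-stage worms was hybridized to Affymetrix C. elegans arrays, 1 array per replicate. Normalization by the invariant set method of dChip and the summary of perfect-match probes were done by the authors, who deposited log2 values. The dChip version is not given in the sources used here. The methods name 3 replicates per strain, and the 9 arrays of the table were used. Of 22625 probe sets, 77 controls were left out. Gene symbols came from the platform annotation (20766 probe sets with 1 symbol, 887 with several, 895 with none), of which 20701 of those with 1 symbol matched a RefSeq gene (WBcel235).

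Strains were compared with limma 3.58.1 (R 4.3.3) in 1 linear model of 9 arrays with 1 coefficient per strain, moderated variances with a trend on the mean, two-sided tests and Benjamini-Hochberg adjustment. The script was tested on simulated data with known changes. Probe sets were assigned to the 10 genes by symbol alone, but the choice of these genes, and of all lists, was made with earlier results of these data known. The lists were other death regulators and caspases, other engulfment genes, corpse DNA degradation, phagosome maturation, CEP-1 and checkpoint, and markers of germ line and oocyte, yolk, sperm, early embryo, body wall muscle, neurons and intestine. From each list at most 4 genes per comparison were named, those called with the largest absolute differences, and the likeness rule took the 3 genes with the highest Pearson r for the 3 genes with the widest range of strain means. Alternatives were quantile normalization, 32 added before the logarithm, no variance trend, a filter at the 40th percentile of mean level, replicate number or BioC set as a block, 1 BioC set alone, a ratio of means of 1.8 or more (the fold threshold of the study, with no test), the next brightest probe set, and leaving out each array. Tables and figures were made with Python 3.11.15, pandas 2.3.3 and matplotlib 3.10.9.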

Additional observations from a re-analysis of the deposited data

Results flagged for a closer look

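In 7 of the 17 probe sets, the difference made by loss of NTH-1 was not the same with and without XPA-1, by the limma interaction. This is 41.2%, beside 39.4% of all probe sets called. By the brightest probe set it was called in 4 of 10 genes. For ced-9, ced-6 and ced-10 the brightest was not called (adjusted p = 0.21, 0.85 and 0.1), and a dimmer probe set was. Positive values mean that loss of NTH-1 went with a more positive change in worms without XPA-1 than in worms with it. The interaction was 0.87 for egl-1, 1.31 for ced-13, 1.69 for ced-8 and 1.03 for ced-10 (172721_x_at). It was -0.94 for ced-9 (193864_at), -1.32 for ced-3 and -1.46 for ced-6 (188052_s_at). With the BioC set as a block none of the 7 was called.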

How the results depend on the processing

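Every comparison of 10 genes rested on 2 or 3 arrays a strain, and no called difference changed sign under any alternative run. Counts of called genes ran as follows when each array was left out: 0 to 1 for nth-1;xpa-1 against N2, 0 to 3 for xpa-1 against N2, 0 to 4 for nth-1 against N2, 2 to 5 for nth-1;xpa-1 against xpa-1, 1 to 6 for nth-1;xpa-1 against nth-1, 0 to 2 for xpa-1 against nth-1 and 2 to 6 for the interaction, with the highest counts without nth-1 replicate 3 (for nth-1;xpa-1 against N2 also without nth-1 replicate 2). In the same fits the calls over all 22548 probe sets ran from 3787 to 11310 for nth-1;xpa-1 against xpa-1. They ran from 3293 to 11396 for nth-1;xpa-1 against nth-1, 2 to 1173 for xpa-1 against nth-1 and 5858 to 12021 for the interaction. Against N2 they ran from 135 to 5910 for nth-1;xpa-1, 245 to 6443 for xpa-1 and 232 to 6061 for nth-1. With the BioC set as a block, a term estimated from the 2 arrays of xpa-1 alone, 0 genes were called for nth-1;xpa-1 against nth-1 and 0 for the interaction. Over all probe sets there were 1077 calls with this block and 8277 without it for nth-1;xpa-1 against nth-1, 1429 and 8888 for the interaction, 97 and 2264 for nth-1 against N2, 757 and 2377 for xpa-1 against N2, and 2 and 6 for xpa-1 against nth-1. Within the higher BioC set, 3 genes were called for nth-1;xpa-1 against N2 (9836 probe sets), 4 for xpa-1 against N2 (8565) and 6 for nth-1;xpa-1 against xpa-1 (12494). The sets gave no value for comparisons with a strain missing from them. With the filter at the 40th percentile 7 genes were tested, without egl-1, ced-13 and ced-3, and 1 was called for nth-1;xpa-1 against xpa-1 and 1 for the interaction. Of the 13523 probe sets left by the filter, 5826 were called for nth-1;xpa-1 against xpa-1 and 5981 for the interaction. For nth-1 against N2, 1229 of the 13523 were called, beside 2264 of 22548 without the filter. With the next brightest probe set 5 genes were called for nth-1;xpa-1 against xpa-1 (34.8% of all probe sets) and 1 for nth-1 against N2 (10%). Genes with a single probe set kept it in this count, so ced-13 and ced-8 were among the 5 by the same probe sets as before. The ratio of means of 1.8 or more, which has no interaction value, took 2 genes for nth-1;xpa-1 against xpa-1, 3 against nth-1, and 1 each for nth-1;xpa-1, xpa-1 and nth-1 against N2 and for xpa-1 against nth-1. Quantile normalization changed the split over all probe sets in nth-1 against N2 to 897 higher and 1254 lower, against 690 and 1574. Without a variance trend the egl-1 interaction (0.87) had an adjusted p of 0.057.

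The replicate numbers did not pair the samples: deviations of arrays with the same number correlated at -0.262 to 0.104. Number 3 of the replicate block occurs only in nth-1, so this block takes nth-1 replicate 3 out of the strain differences. Against N2 the replicate block called 1 gene for nth-1;xpa-1, 2 for xpa-1 and 4 for nth-1. It called 5 for nth-1;xpa-1 against xpa-1 and 1 for xpa-1 against nth-1. Over all probe sets these comparisons had 5047, 5422, 5072, 10647 and 818 calls. For nth-1;xpa-1 against nth-1 there were 10711, and for the interaction 11349. A tally over all settings covered the brightest probe set of each gene and those dimmer ones that had a call in the fit of all arrays. Differences of single probe sets called in that fit kept their call 211 times and lost it 67 times. Those not called there gained a call 60 times, and without a call 63 moved by more than 1 standard error and 1083 did not.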
